A study of Mus musculus with 12 samples.

Results

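The IL-12 family, IL-10 and IL-15 are cytokines with which antigen-presenting and tissue cells steer lymphocytes. The genes followed here were Il12a, Il12b, Il23a, Il27, Ebi3, Il10, Il15 and Il15ra, taken by symbol. They are 8 of the 23329 genes listed in the count tables. All 8 had counts, and 6 of them, without Il12a and Il10, passed the filter on low counts that left 13038 genes for testing. Their levels were measured by stranded poly(A) mRNAseq in cultured stroma from mouse small intestine, labelled as intestinal myofibroblasts. The embryonic cultures came from E14.5 embryos, pooled for each culture, and the adult cultures from adult mice, whose exact age is not given in the sources used here. All mice had the C57BL6/J background, with no transgene named for these cultures, and the cells were used at early passage after the epithelium had been removed. LPS from E. coli, a ligand of the receptor TLR4, was added for 6 h at a concentration given as 10 µg/µl, a unit printed as stated that could not be checked here. Controls of the same stage received PBS. The 2 stages and 2 treatments make 4 groups of 3 libraries. The comparisons ask what LPS changes at each stage, and whether the stages differ.

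The cytokines of the IL-12 family are heterodimers that share chains. The p40 chain, encoded by Il12b, pairs with p35 (Il12a) to make IL-12 or with p19 (Il23a) to make IL-23. The p28 chain (Il27) pairs with EBI3 to make IL-27, and EBI3 can also pair with p35. IL-12 drives the Th1 response and IFN-gamma, IL-23 sustains Th17 and innate lymphoid cells, and IL-27 both promotes and restrains T cell responses. IL-10 dampens inflammation. IL-15 keeps NK cells and memory CD8+ T cells alive and is presented to them in trans, bound to the receptor chain made from Il15ra. In the gut these cytokines are best known from macrophages and dendritic cells, and IL-15 also from epithelium.

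Gene counts per library ranged from 18850224 to 32672370. Levels are given as CPM, reads of a gene scaled to the TMM-adjusted library total, and 3 counts, taken as the floor of detection, corresponded to 0.0897 to 0.145 CPM. That floor covers counting error only. Stromal markers were abundant in all libraries, with 12 of them summing to between 21662 and 44010 CPM, while 7 epithelial markers summed to 19.5 to 117 CPM, most of it the keratin genes Krt8 and Krt18, with Epcam at no more than 0.488 CPM. The libraries were not pure stroma, since the 16 macrophage markers summed to 226 to 3247 CPM in embryonic and 55.0 to 226 CPM in adult cultures. Endothelial markers reached 743 CPM in adult libraries and at most 31.2 CPM in embryonic libraries. In such bulk samples, fewer cells of a type and less RNA per cell cannot be told apart. A gene was called for LPS against PBS when edgeR's quasi-likelihood test gave an adjusted p under 0.05 with a log2 change of 2 or more either way, and for embryonic against adult stroma when the adjusted p was under 0.05. Errors of fold changes were worked back from each fold change and its test statistic, with 3 libraries in each group. They and the intervals of fold changes built from them are approximate, and the p-values are the test results. LPS and PBS libraries of the same replicate number deviated together, and the value with the replicate number as a block is given where it changed a call.

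Start-site windows of 4 of the 8 genes (Il12a, Il12b, Ebi3 and Il15ra) were matched in RefSeq's GRCm38.p6. Each window runs from 250 bases before to 50 bases after the start. They were searched on both strands for 6 motifs of factors known to act downstream of LPS and interferon. These were NF-kB, the ISRE core GAAANNGAA, C/EBP TTGCNNAA, AP-1 TGANTCA, CRE TGACGTCA and the ETS site GAGGAAG. The windows below belong to the gene with the highest LPS level, to the EBI3 gene that carries an NF-kB match, and to Il15ra, which rose at both stages when cultures were paired. Each is on the plus strand and capitals mark motif matches:
Il12b, chr11:44399813-44400112: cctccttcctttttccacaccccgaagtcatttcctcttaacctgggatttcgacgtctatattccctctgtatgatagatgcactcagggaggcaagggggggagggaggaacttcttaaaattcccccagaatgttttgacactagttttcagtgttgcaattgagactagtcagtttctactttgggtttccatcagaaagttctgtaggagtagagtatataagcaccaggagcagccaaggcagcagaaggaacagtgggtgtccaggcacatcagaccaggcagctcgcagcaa
Ebi3, chr17:55952373-55952672: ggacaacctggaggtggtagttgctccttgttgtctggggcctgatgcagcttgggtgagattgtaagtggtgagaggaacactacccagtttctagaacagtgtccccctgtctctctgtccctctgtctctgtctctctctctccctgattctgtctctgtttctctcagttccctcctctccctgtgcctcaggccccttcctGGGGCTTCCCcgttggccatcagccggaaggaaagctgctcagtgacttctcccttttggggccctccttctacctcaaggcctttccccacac
Il15ra, chr2:11705462-11705761: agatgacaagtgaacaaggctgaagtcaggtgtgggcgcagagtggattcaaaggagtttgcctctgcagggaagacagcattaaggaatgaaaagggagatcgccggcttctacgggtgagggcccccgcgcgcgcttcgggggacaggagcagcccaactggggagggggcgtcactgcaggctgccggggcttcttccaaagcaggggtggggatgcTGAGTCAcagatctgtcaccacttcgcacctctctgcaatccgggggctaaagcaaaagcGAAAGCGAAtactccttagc

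The Il12b window held none of the 6 motifs, and neither did either window of Il12a. The Ebi3 window held the NF-kB motif on the gene strand at position -44, which 4.51% of all 32851 windows hold. In the Il15ra window shown, AP-1 lay at position -30 and the ISRE core at position 31. These motifs are held by 7.81% and 8.56% of all windows. The other Il15ra window, chr2:11705043-11705342, held the ISRE core at position -149 and the ETS motif, found in 13.6% of windows, at position -213, both on the opposite strand. A match is a run of letters and not a measured site. Only these exact letters were searched, so a site that departs from them is missed. A window without a match is thus not shown to lack such sites.

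LPS raised 5 of the 6 tested genes in embryonic stroma (Il12b, Il23a, Il27, Il15 and Il15ra), where 1.87% of all tested genes rose. With the replicate block Ebi3 rose too, so that 6 of 6 rose against 3.02% of all genes. In adult stroma Il23a alone rose (1 of 6, against 0.422% of all genes), and with the block 5 of 6 rose, all but Il15, against 1.6%. None of the 6 fell. Over the 6 genes, the log2 fold change had a median of 5.68 (embryonic) and 5.23 (adult), beside -0.000274 and -0.00749 over all tested genes. With LPS, embryonic stroma exceeded adult stroma for Il12b, Il27, Ebi3 and Il15, 4 of 6 genes against 3.04% of all genes. With PBS, 0 of 6 were called between the stages, beside 4.08% of all genes. Il12b, Il23a, Il27 and Ebi3 passed the filter only through LPS groups, so their count with PBS rests on few reads. Their rises with LPS were favoured by that filter and are no independent support for one another. Ebi3 passed through embryonic LPS alone, so its call between the stages with LPS was favoured too and is no support.

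**Figure D1:**
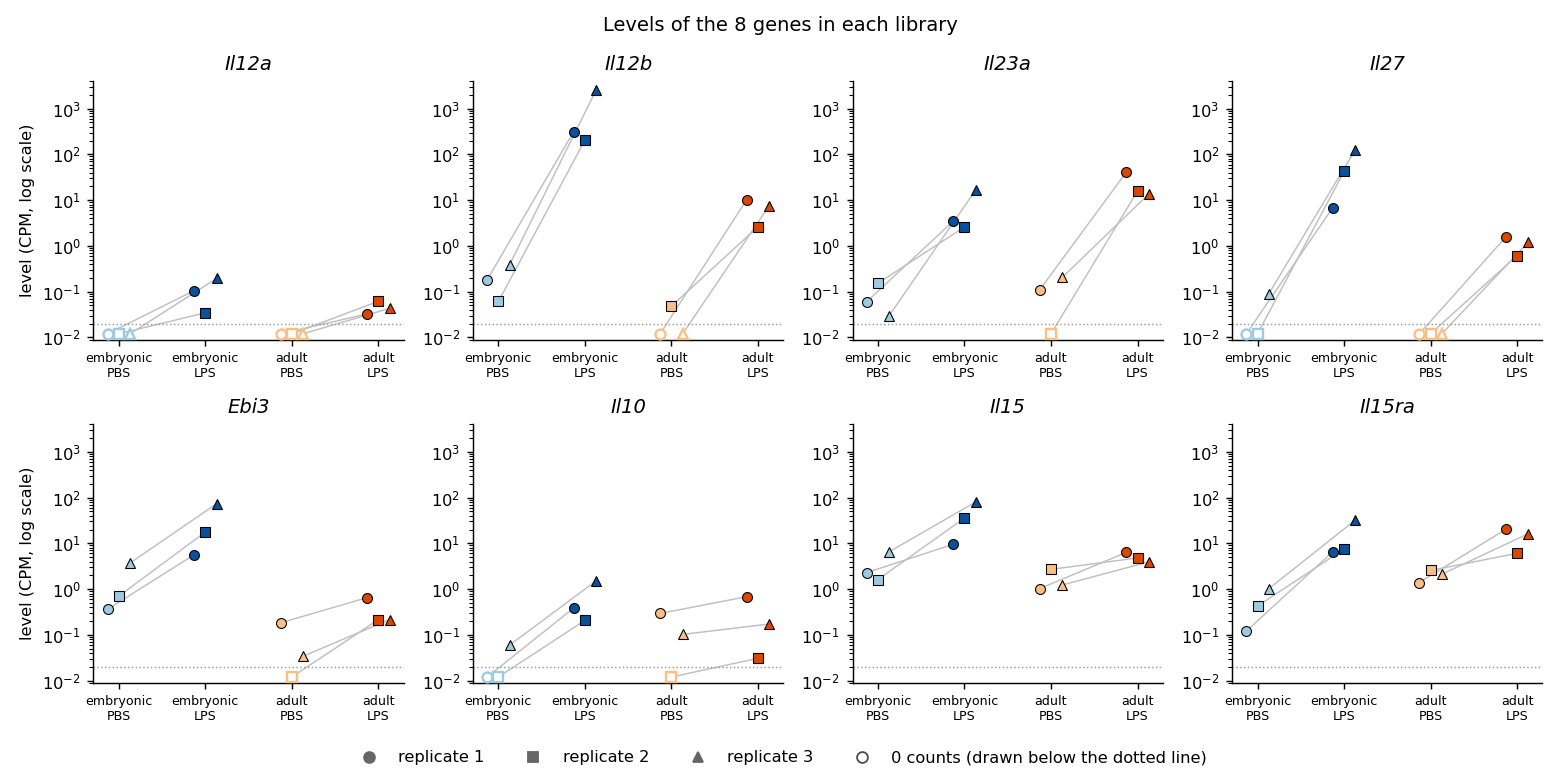
Level of each of the 8 genes in CPM on a log scale (vertical axis) in every library of the 4 groups. Grey lines join PBS and LPS libraries of the same replicate number and open symbols are libraries with 0 counts. Il12b runs from at most 0.389 CPM with PBS to 2552 CPM in 1 embryonic LPS library, Il23a has its highest level, 40.7 CPM, in an adult LPS library, and Il12a stays below 0.2 CPM throughout.

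Il12b encodes p40, the chain common to IL-12 and IL-23 (chromosome 11, 44400063 to 44414677). In embryonic LPS libraries 1, 2 and 3 it stood at 312, 204 and 2552 CPM, and with PBS at 0.181, 0.0610 and 0.389 CPM. Adult LPS libraries held 10.2, 2.61 and 7.52 CPM, and 1 count (0.0482 CPM) was found in the 3 adult PBS libraries together. All LPS libraries lay above all PBS libraries, and all embryonic LPS libraries above all adult ones. The embryonic rise was 12.21 ± 1.40 on the log2 scale (adjusted p = 0.00227, edgeR), the largest fold change among the 6 genes. In adult stroma the ratio of summed counts was 513, with a 95% counting interval from 91.8 to 20312, since it rests on that 1 count. The adult test gave an adjusted p of 0.0627 without the block and 6.02e-05 with it (edgeR). It fell to 0.00476 when embryonic LPS replicate 3 was left out and to 0.0348 without embryonic LPS replicate 2, libraries that enter only through the shared estimate of spread. With LPS, the embryonic level exceeded the adult one by 7.24 ± 1.11 on the log2 scale (adjusted p = 0.00897, edgeR), and by 7.32 with an adjusted p of 0.0543 when adult LPS replicate 3 was left out.

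Il12a encodes p35, the partner that turns p40 into IL-12 (chromosome 3, 68690644 to 68698550). Embryonic LPS libraries held 3, 1 and 5 counts (0.105, 0.0345 and 0.194 CPM) and adult LPS libraries 1, 2 and 1 counts (0.0326, 0.0615 and 0.0432 CPM). All 6 PBS libraries held 0 counts. Counts were thus seen only with LPS, but at or near the floor at both stages, so no fold change is given. Without the filter on low counts, the embryonic adjusted p was 0.186 (edgeR).

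Il23a encodes p19, which with p40 makes IL-23 (chromosome 10, minus strand, 128296140 to 128298084). In adult LPS libraries it stood at 40.7, 15.8 and 13.6 CPM, and with PBS at 0.11, 0 and 0.205 CPM. Embryonic LPS libraries held 3.47, 2.59 and 16.7 CPM, and embryonic PBS libraries 0.0603, 0.152 and 0.0299 CPM. The LPS and PBS libraries did not overlap at either stage, whereas embryonic LPS replicate 3 lay within the adult LPS range. The rise was 7.64 ± 1.09 on the log2 scale in adult stroma (adjusted p = 0.0131) and 6.48 ± 1.06 in embryonic stroma (adjusted p = 0.0106, both edgeR). The adult call was lost without adult PBS replicate 1, 2 or 3, at adjusted p of 0.103, 0.0709 and 0.0961 (edgeR). The embryonic call was lost without embryonic PBS replicate 1 (adjusted p = 0.0697, edgeR). With LPS, the embryonic minus adult difference was -1.63 ± 0.77 on the log2 scale. Its p was 0.0609 before adjustment over all genes and 0.253 after it (edgeR). In this fit Il23a was the 1 gene of the 6 with a lower fitted embryonic level under LPS. With a block across stages Il15ra was lower too, at -0.24 on the log2 scale.

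Il27 encodes p28 (chromosome 7, minus strand, 126589009 to 126595035) and overlaps Apobr on the other strand, from which the stranded counts separate it. Embryonic LPS libraries held 6.87, 42.3 and 127 CPM, and embryonic PBS libraries 0, 0 and 3 counts (0.0897 CPM). In adult stroma the LPS libraries held 1.56, 0.615 and 1.21 CPM and the PBS libraries 0 counts each. Neither treatment groups nor LPS stages overlapped. The embryonic rise was 10.73 ± 1.49 on the log2 scale (adjusted p = 0.00928, edgeR), and the ratio of summed counts was 1863, with a counting interval from 637 to 9037. That call was lost without embryonic PBS replicate 1 or 3, at adjusted p of 0.0607 and 0.0521 (edgeR). In adult stroma Il27 was at least 9.50-fold higher with LPS, taking 3 counts per library as the PBS floor. The adult adjusted p was 0.294 without the block and 0.00184 with it (edgeR). Embryonic LPS levels exceeded adult ones by 5.70 ± 1.08 on the log2 scale (adjusted p = 0.0271, edgeR). Without adult LPS replicate 1, 2 or 3 or embryonic LPS replicate 3 that adjusted p was 0.0843, 0.0866, 0.116 and 0.0592 (edgeR).

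Ebi3 encodes the partner of p28 (chromosome 17, 55952623 to 55957022) and overlaps the predicted gene Gm16712 on the other strand. It had the highest PBS level among the IL-12 family genes in embryonic stroma, at 0.362, 0.701 and 3.71 CPM, and stood at 5.61, 17.6 and 73.2 CPM with LPS. Adult PBS libraries held 0.183, 0 and 0.0341 CPM and adult LPS libraries 0.651, 0.215 and 0.216 CPM. LPS and PBS libraries did not overlap at either stage, and every embryonic library of a treatment lay above every adult one. The embryonic difference of 4.33 ± 1.13 on the log2 scale had an adjusted p of 0.0863 without the block and of 6.08e-06 with it (edgeR). Without embryonic LPS replicate 1 it was 4.83 with an adjusted p of 0.0384 (edgeR). The adult difference was 2.19 ± 1.53 on the log2 scale, with an adjusted p of 1 without the block and of 0.0356 with it (edgeR). The stage difference was 6.44 ± 1.29 with LPS (adjusted p = 0.023) and 4.30 ± 1.41 with PBS (adjusted p = 0.115, both edgeR). The former was lost without adult LPS replicate 1, 2 or 3 or embryonic LPS replicate 3, at adjusted p of 0.0691, 0.0792, 0.11 and 0.054 (edgeR).

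The chains that pair with each other were compared within each LPS library. Per kilobase of exon, Il12b exceeded Il23a in 3 of 3 embryonic LPS libraries, by 103, 90.1 and 175 times. In adult LPS libraries it was below Il23a, at 0.287, 0.189 and 0.631 of its level. The ratios differed by 8.50 on the log2 scale and did not overlap. An exact two-sided permutation test of 3 against 3 libraries gave p = 0.1, the smallest it can give, for this and each further ratio that did not overlap. Il12b over Il12a was at least 2569 in embryonic and at most 272 in adult LPS libraries, but these ratios rest on 1 to 5 counts of Il12a. Il27 over Ebi3 was 1.38, 2.71 and 1.95 in embryonic and 2.71, 3.23 and 6.33 in adult LPS libraries. The ranges met at 2.71 (exact permutation p = 0.2), so the chains of IL-27 stood closer to each other than those of IL-12 or of embryonic IL-23. In all, 4 chain pairs were compared, and none passed 0.05, with exact permutation p adjusted over the 4 pairs at 0.133 for 3 of them and 0.2 for Il27 over Ebi3.

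**Figure D2:**
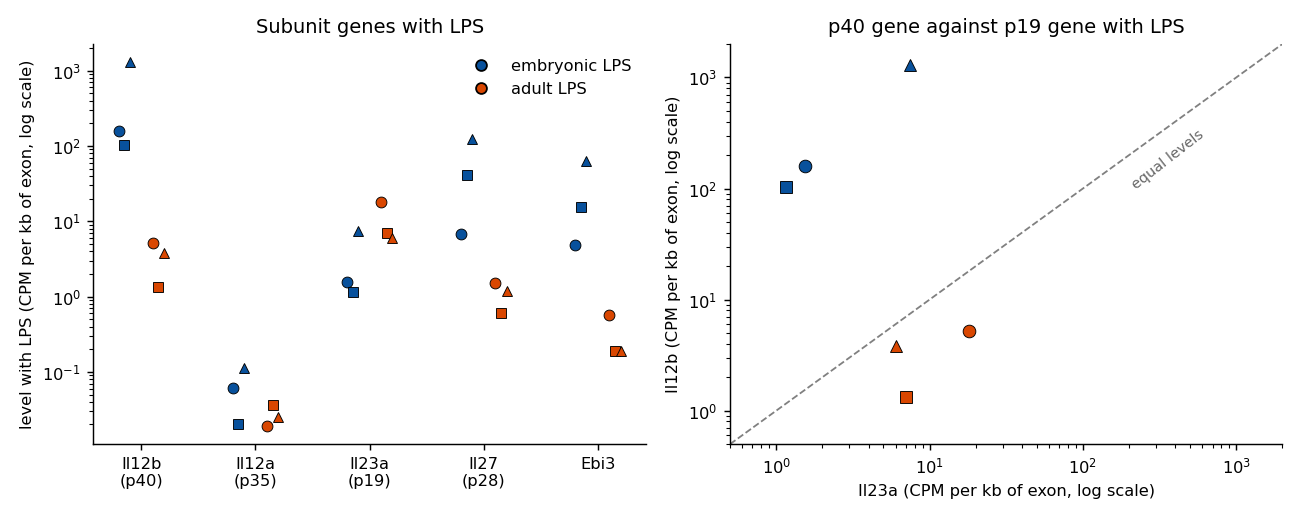
Left, level per kilobase of exon (log scale) of the 5 subunit genes in the LPS libraries, with circles, squares and triangles for replicates 1, 2 and 3. Right, Il12b against Il23a on the same scale with the line of equal levels, where the 3 embryonic libraries lie above the line by 90.1 to 175 times and the 3 adult libraries below it.

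Il10, the anti-inflammatory cytokine gene (chromosome 1, 131019845 to 131024970), did not pass the filter. Embryonic LPS libraries held 11, 6 and 39 counts (0.386, 0.207 and 1.51 CPM) and embryonic PBS libraries 0, 0 and 2 counts. Adult LPS libraries held 21, 1 and 4 counts (0.684, 0.0308 and 0.173 CPM) and adult PBS libraries 8, 0 and 3 counts (0.293, 0 and 0.102 CPM). The groups did not overlap in embryonic stroma and overlapped in adult stroma. The ratio of summed counts was 33.4 in embryonic stroma, with a counting interval from 8.84 to 283 on 2 PBS counts. In adult stroma it was 2.12, with an interval from 1.01 to 4.75. Without the filter, edgeR gave adjusted p of 0.217 and 1. With LPS, Il10 stayed at or below 1.51 CPM in cultures whose Il12b reached 2552 CPM.

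Il15 (chromosome 8, minus strand, 82331624 to 82403252) encodes the survival factor of NK and memory T cells. It was detected in all 12 libraries. Embryonic PBS libraries held 2.29, 1.62 and 6.55 CPM and embryonic LPS libraries 9.53, 35.6 and 80.3 CPM. In adult stroma the level was 1.03, 2.70 and 1.23 CPM with PBS and 6.32, 4.80 and 3.93 CPM with LPS. LPS and PBS libraries did not overlap at either stage, and the embryonic LPS libraries all lay above the adult ones. The embryonic rise was 3.58 ± 0.79 on the log2 scale (adjusted p = 0.0404, edgeR). It passed only just, and leaving out any of 10 of the 12 libraries (all but embryonic LPS replicate 1 and embryonic PBS replicate 3) gave adjusted p of 0.0502 to 0.179, the largest without embryonic PBS replicate 1. With the block the adjusted p was 0.00204 (edgeR). The adult difference of 1.62 ± 0.76 was not called either without the block (adjusted p = 0.941) or with it (adjusted p = 0.105, edgeR). With LPS, embryonic stroma exceeded adult stroma by 3.06 ± 0.77 on the log2 scale (adjusted p = 0.0484, edgeR), which was lost on leaving out any of 9 libraries, at adjusted p of 0.0556 to 0.18. The libraries whose removal kept it were embryonic LPS replicate 1 and embryonic PBS replicates 2 and 3.

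Il15ra (chromosome 2, 11705172 to 11733985) encodes the chain that presents IL-15 to neighbouring cells. Its embryonic PBS levels were 0.121, 0.427 and 1.02 CPM and its embryonic LPS levels 6.55, 7.49 and 32.2 CPM. Adult libraries held 1.39, 2.55 and 2.11 CPM with PBS and 20.3, 6.06 and 16.2 CPM with LPS. With PBS all adult libraries lay above all embryonic ones, and with LPS the stages overlapped. The embryonic rise was 4.87 ± 0.89 on the log2 scale (adjusted p = 0.0177, edgeR), and without embryonic PBS replicate 1 or 2 the adjusted p was 0.0748 and 0.0708. In adult stroma the difference was 2.81 ± 0.80, with an adjusted p of 0.26 without the block and of 0.0107 with it (edgeR). With LPS the stages differed by 0.12 ± 0.74 on the log2 scale, with a 95% interval from -1.33 to 1.57 (adjusted p = 0.951, edgeR). This difference turned to -0.24 without adult LPS replicate 2 and to -1.04 without embryonic LPS replicate 3. With PBS it was -1.94 ± 0.83, with an adjusted p of 0.223 (edgeR). Il15ra over Il15 per kilobase was 0.350, 0.107 and 0.204 in embryonic LPS libraries and 1.63, 0.642 and 2.10 in adult LPS libraries, with no overlap (exact permutation p = 0.1).

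Ordered by the median level per kilobase in embryonic LPS libraries, the genes ran Il12b (159), Il27 (41.4), Il15 (15.7), Ebi3 (15.3), Il15ra (1.69), Il23a (1.54), Il10 (0.294) and Il12a (0.0618 CPM per kilobase). Neighbours in this order overlapped in range, except that Il10 lay above Il12a in its lowest library. In adult LPS libraries the order was Il23a (7.02), Il12b (3.82), Il15ra (3.65), Il15 (2.12), Il27 (1.19), Ebi3 (0.187), Il10 (0.132) and Il12a (0.0254 CPM per kilobase). There Il23a stood clear of Il12b, Il15 of Il27 and Il27 of Ebi3, and the other neighbours overlapped. Il23a thus stood first among the 8 genes in adult stroma and sixth in embryonic stroma.

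Whether the LPS effect itself differed between stages was asked with the interaction of stage and LPS. It was called for 0 of 6 genes, as for 0% of all 13038 genes, although 293 genes had an unadjusted p under 0.05 (edgeR). None of those 293 was among the 6 genes, of which Il15 had the lowest unadjusted p at 0.0884. DESeq2 also called 0 of the 6, beside 0.169% of all genes called with a higher embryonic response. With the block 0.844% of all genes were called and again 0 of the 6. In that fit Il15ra, Ebi3 and Il15 had unadjusted p of 0.015, 0.0159 and 0.0297 and adjusted p of 0.378, 0.385 and 0.476 (edgeR). The blocked interaction, embryonic minus adult, was 2.14 ± 0.69 for Il15ra, 2.11 ± 0.69 for Ebi3 and 1.74 ± 0.66 for Il15 on the log2 scale. For Il12b and Il27 the p was 0.24 and 0.761, and the adult PBS libraries they are measured against held 1 and 0 counts. For Il23a the blocked value was -1.26 ± 1.41 (adjusted p = 0.876, edgeR).

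The differences between LPS and PBS within a replicate number show the same data by culture, on log2 CPM with a prior count of 2. For Il12b they were 10.29, 10.62 and 12.44 in embryonic and 7.22, 4.51 and 6.78 in adult cultures. For Ebi3 they were 3.72, 4.52 and 4.28 against 1.51, 2.04 and 1.46. Il27 gave 6.65, 9.26 and 9.64 against 4.56, 3.30 and 4.21. The embryonic differences of Il12b, Il27, Ebi3 and Il15ra all exceeded the adult ones, which is 4 of the 6 tested genes beside 9.66% of all genes. For Ebi3 this order was favoured by the filter, which it passed through embryonic LPS alone. Il10, which was not tested, showed the same order. Il23a (4.77, 3.58 and 7.40 against 7.83, 7.84 and 5.64), Il15 and Il12a overlapped. The prior count shrinks the differences of genes at 0 counts, in adult cultures most of all.

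**Figure D3:**
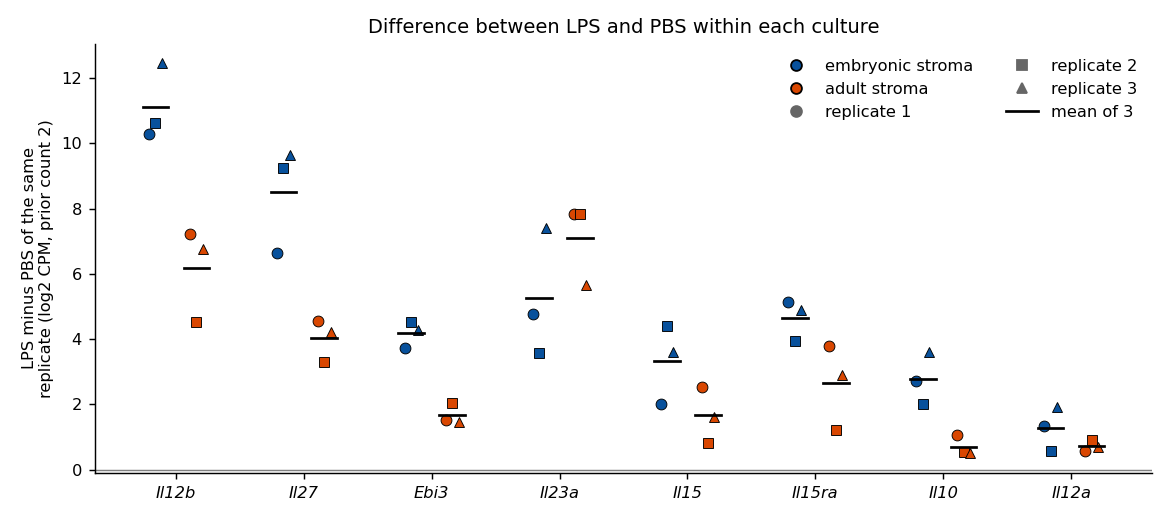
Difference in log2 CPM (prior count of 2) between the LPS and PBS library of the same replicate number, for the 8 genes. Blue points are embryonic and orange points adult cultures, and bars are means of 3. Every difference is above 0, and the embryonic points of Il12b, Il27, Ebi3, Il15ra and Il10 lie above all adult points of the same gene.

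Macrophages are a known source of these cytokines, and the summed level of their markers was higher in most embryonic than in adult libraries. The 16 macrophage markers summed to 226, 1178 and 2452 CPM in embryonic LPS libraries and to 226, 55.0 and 65.0 CPM in adult LPS libraries. With PBS the sums were 279, 518 and 3247 CPM in embryonic and 216, 66.3 and 70.6 CPM in adult libraries. All 16 markers were tested. Without the block none was called for LPS against PBS at either stage, where 1.87% (embryonic) and 0.422% (adult) of all genes rose. With the block Fcgr1 rose by 2.31 and Cx3cr1 fell by 2.82 on the log2 scale in embryonic stroma. Without the block 1 of 16 (Fcgr1) was higher in embryonic stroma with LPS, beside 3.04% of all genes, with a median log2 difference of 4.21 over the 16. With PBS 1 of 16 was higher too, beside 1.51% of all genes, with a median of 4.37. Fcgr1, Itgam, Tyrobp and Aif1 passed the filter through embryonic groups alone. That favoured the Fcgr1 call and both medians, which are no support for a stage difference. Zero counts occurred for 1 marker in 1 library, adult PBS replicate 2. Dendritic cells are another known source. Their 10 markers summed to 5.35 to 21.3 CPM, with Zbtb46 reaching 19 and Itgax 9.63 CPM. Ccr7, a chemokine receptor of migrating dendritic cells, reached 8.66 CPM with LPS and at most 0.0366 CPM with PBS. Flt3, Clec9a, Cd209a and Xcr1 reached at most 0.130 CPM. The part of dendritic cells in the LPS responses was not tested, and 13 lymphocyte markers summed to at most 6.04 CPM.

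Relative to the summed macrophage markers of the same LPS library, 3 of the 8 genes were higher in embryonic stroma without overlap. These log2 ratios were taken after the floor of 3 counts had been added to the gene's level. The ratio of Il12b was higher by 3.29, that of Ebi3 by 2.28 and that of Il27 by 1.63 on the log2 scale. Mertk, a macrophage gene, made up 37.0 of the 55.0 CPM of markers in adult LPS replicate 2. With Mertk left out of the list, a choice made after the data were seen, the differences were 2.66 (Il12b), 1.65 (Ebi3) and 0.99 (Il27). The Il27 ratios then overlapped, with a highest adult value of 34.2 and a lowest embryonic value of 30.8 CPM for every 1000 CPM of markers, while those of Il12b and Ebi3 did not overlap. The ratio of Il15 differed by -0.63 and overlapped (exact permutation p = 0.4). Il23a and Il15ra were lower per marker in embryonic stroma, by -5.15 and -3.33 on the log2 scale, without overlap. Il10 gave -2.19, but without the added floor its ratios overlapped, at 0.176 to 1.71 in embryonic and 0.560 to 3.03 CPM for every 1000 CPM of markers in adult LPS libraries. Il12a gave -2.76 and overlapped (exact permutation p = 0.2). Each gene whose log2 ratios with the added floor did not overlap with the full list, Il10 among them, had an exact two-sided permutation p of 0.1. That is the smallest that 3 against 3 libraries allow, and adjusted over the 8 genes it was 0.133. The part of the macrophage content in the stage differences was not tested beyond these ratios.

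Embryonic and adult LPS replicates 1, picked after their values were seen, had the same macrophage sum of 226 CPM over the full list. Without Ptprc, Itgam and Lyz2 their sums were 157 and 112 CPM, so the markers were not matched one by one. In this pair the embryonic library held 312 CPM of Il12b and the adult library 10.2 CPM. Il27 stood at 6.87 against 1.56 CPM, and Ebi3 at 5.61 against 0.651 CPM. Il15 was 9.53 against 6.32 CPM. In the opposite direction, Il23a was 3.47 against 40.7 CPM and Il15ra 6.55 against 20.3 CPM. These are 2 single libraries with no replicate check. Among the embryonic LPS libraries, Il12b did not follow the marker sum in order, since replicate 2 had the lower Il12b level (204 CPM) but 1178 CPM of markers, and replicate 1 had 312 CPM of Il12b on 226 CPM of markers.

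**Figure D4:**
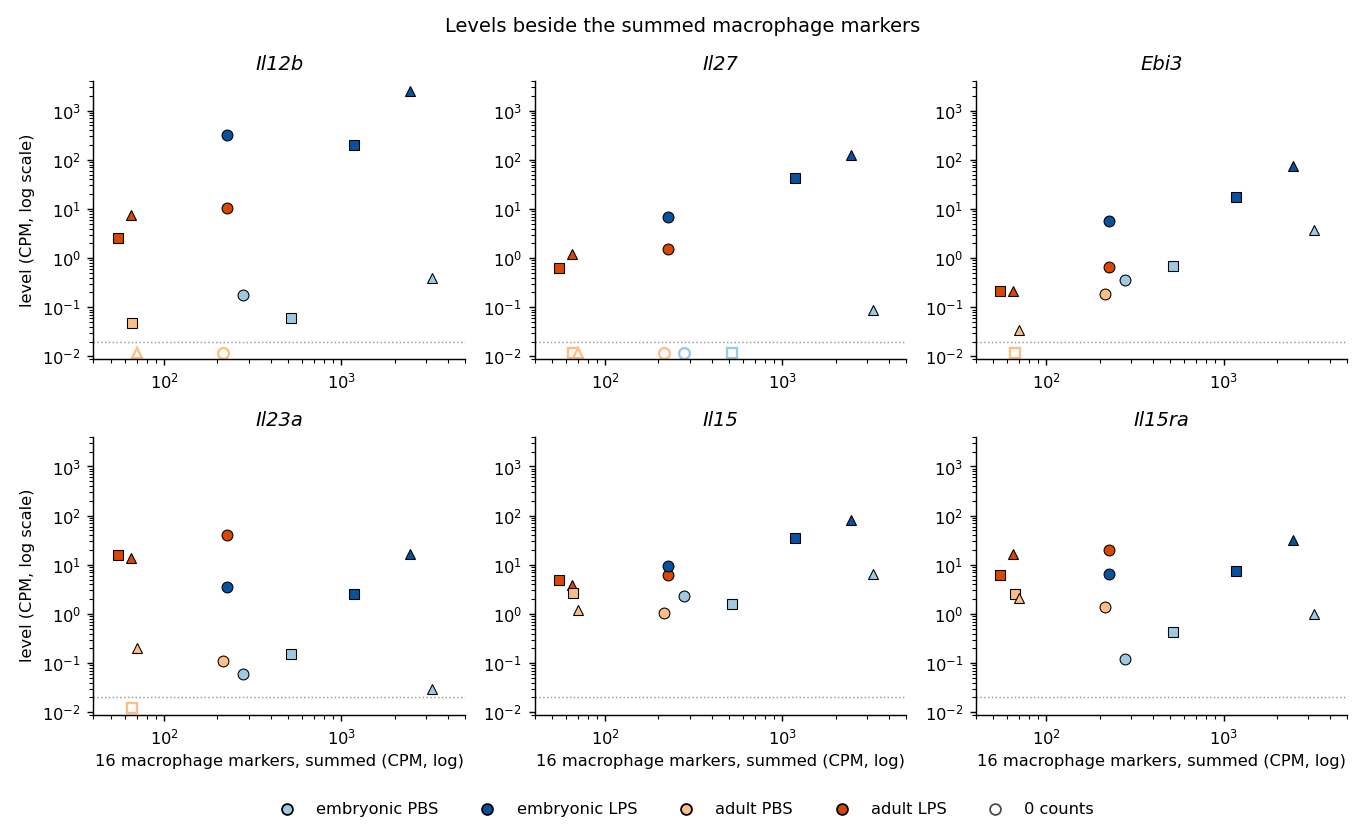
Level of 6 genes (vertical axis, CPM on a log scale) against the summed level of 16 macrophage markers (horizontal axis, CPM on a log scale) in the 12 libraries, with circles, squares and triangles for replicates 1, 2 and 3. The embryonic and adult LPS libraries at the shared sum of 226 CPM were picked after their values were seen. Without Ptprc, Itgam and Lyz2 their sums were 157 and 112 CPM. The embryonic one lies above the adult one for Il12b, Il27, Ebi3 and Il15 and below it for Il23a and Il15ra.

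Removals of 2 whole cultures were added after the data were seen. Without both libraries of embryonic replicate 3, which has the most macrophage marker counts, 5 of 6 genes rose in embryonic and 3 in adult stroma, and 2 were higher in embryonic stroma with LPS, beside 1.42%, 0.883% and 2.48% of all genes in that fit. Without both libraries of adult replicate 2, which has the most endothelial marker counts, the counts were 4, 0 and 0, beside 1.33%, 0.106% and 0.714%. In that fit the adjusted p of the adult rise of Il23a was 0.106, at a log2 fold change of 7.38, and that of the stage difference of Il12b was 0.0644 at 6.84 (edgeR).

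Of the 9 receptor chains for these cytokines, 5 were tested. Without the block none was called in any of the LPS or stage comparisons. Of all genes, 1.87% rose with LPS in embryonic and 0.422% in adult stroma. Between the stages 3.04% were higher in embryonic stroma with LPS, and 4.08% were called either way with PBS. Il6st, the gp130 chain that IL-27 uses, was the most abundant, at 176 to 217 CPM with PBS and 257 to 360 CPM with LPS in embryonic libraries. In adult libraries it ranged from 232 to 298 CPM with PBS and from 332 to 347 CPM with LPS. Its own groups did not overlap at either stage, with log2 differences of 0.62 ± 0.15 (adjusted p = 0.0553) and 0.38 ± 0.15 (adjusted p = 0.636, both edgeR). Il27ra, the other IL-27 chain, stayed between 0.0366 and 4.34 CPM.

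Il10rb, a chain shared by IL-10 and related cytokines, ranged from 40.8 to 77.9 CPM over all libraries. Il10ra, which is specific to IL-10, stood at 8.80 to 96.9 CPM in embryonic LPS and 2.53 to 25.9 CPM in embryonic PBS libraries, and at or below 3.81 CPM in adult libraries. Its embryonic difference was 2.31 ± 1.19 on the log2 scale (adjusted p = 0.587), and with the block it was called, at 2.53 with an adjusted p of 0.01 (edgeR). With LPS the stage difference of Il10ra was 4.87 ± 1.36 (adjusted p = 0.0662, edgeR), with no overlap between the stages. Il10ra passed the filter through embryonic groups alone, so this difference was favoured by it. For IL-15, the common gamma chain gene Il2rg ranged from 3.14 to 34.3 CPM in embryonic and from 0.769 to 15.1 CPM in adult libraries, while Il2rb stayed at or below 0.179 CPM. The chains through which lymphocytes sense IL-12 and IL-23 were low, with Il12rb1 at most 0.466, Il12rb2 at most 1.14 and Il23r at most 1.23 CPM. The cultures thus held transcripts of the broadly expressed chains Il6st and Il10rb, and few of Il12rb1, Il12rb2, Il23r and Il2rb.

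**Figure D5:**
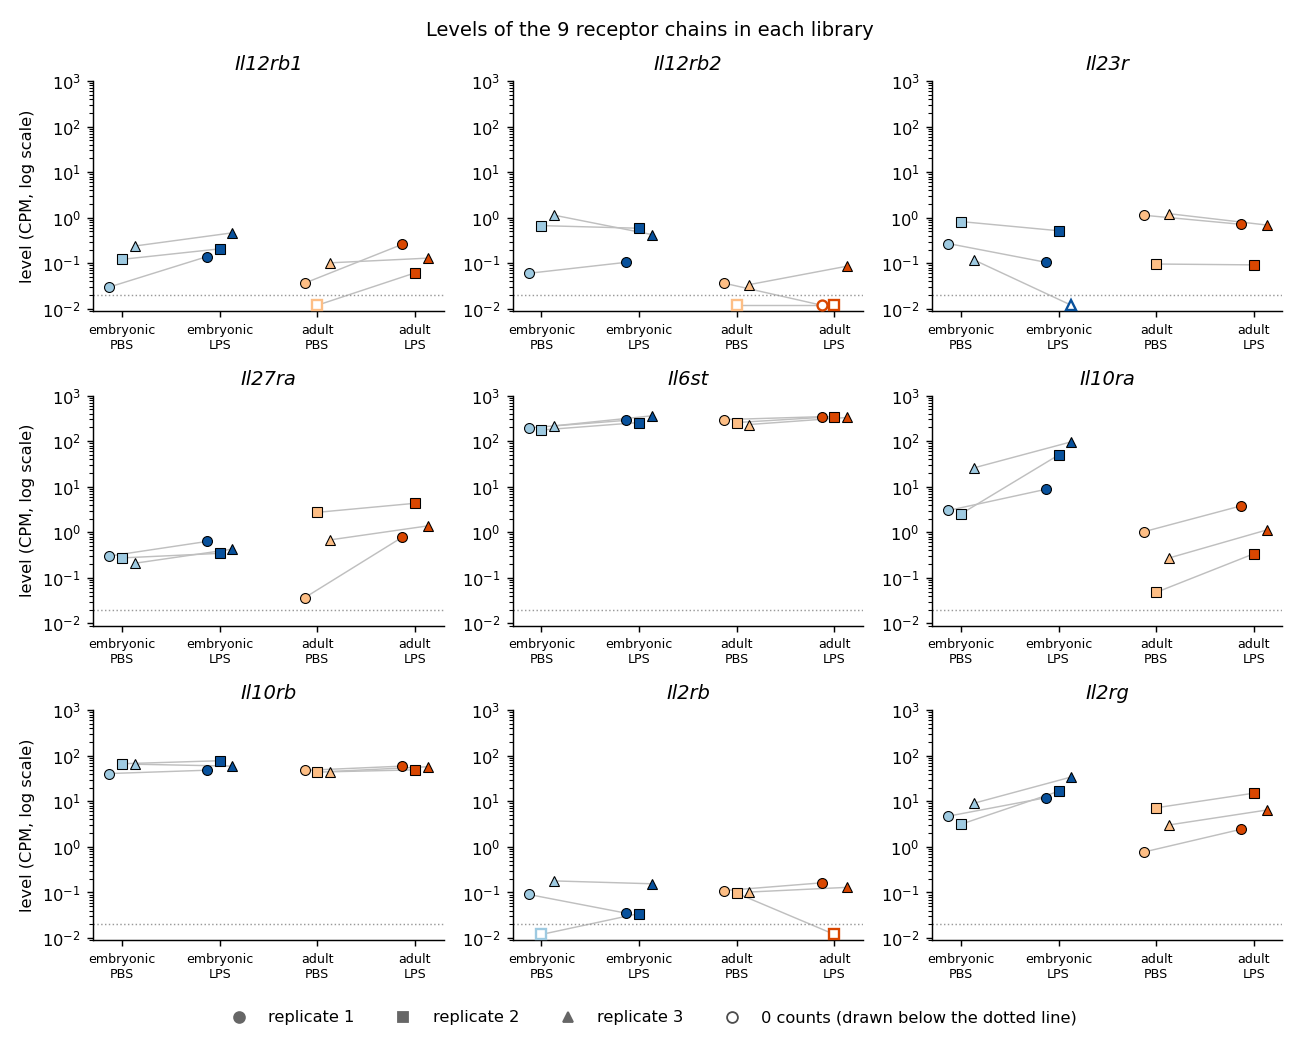
Level of the 9 receptor chains in CPM on a log scale in every library of the 4 groups, with PBS and LPS symbols of 1 replicate number joined. Il6st (176 to 360 CPM) and Il10rb (40.8 to 77.9 CPM) are high in all libraries, the embryonic LPS points of Il10ra (8.80 to 96.9 CPM) lie above the adult ones, and Il2rb stays at or below 0.179 CPM.

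Of 12 genes that carry or restrain the signals of these receptors, 11 were tested, with 4 rising in embryonic and 0 in adult stroma, beside 1.87% and 0.422% of all genes. Among them were the feedback inhibitors Socs3 (5.66 ± 0.93) and Socs1 (4.66 ± 0.66) and Bcl3 (4.26 ± 0.66), a regulator of NF-kB, all on the log2 scale. With the block Bcl3 rose in adult stroma too, by 3.18 (adjusted p = 0.00288, edgeR). Of 13 factors known to act on the promoters of these cytokines, 12 were tested, with 3 rising in embryonic and 2 in adult stroma, beside the same shares of all genes. In embryonic stroma Irf1 (4.19 ± 0.65), Nfkb1 (2.4 ± 0.30) and Rel (2.34 ± 0.52) rose, and in adult stroma Irf1 (3.53 ± 0.64) and Nfkb1 (2.19 ± 0.29) did. With the block Irf5 (2.59) and Atf3 (2.12) rose too in embryonic stroma, and the interaction was called for Atf3, at 1.66 (adjusted p = 0.0323, edgeR). Irf8, a factor of myeloid cells known for its part in Il12b expression, was higher in embryonic stroma with LPS by 5.34 ± 1.04 (adjusted p = 0.0225, edgeR). It was the 1 factor of 12 called higher there, beside 3.04% of all genes. The stages did not overlap with PBS either, at 3.84 to 32.4 CPM in embryonic and 0.580 to 0.989 CPM in adult libraries. With PBS 0 of 12 were called between the stages, beside 4.08% of all genes.

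Of 14 other cytokines that act on lymphocytes, 4 passed the filter. Tslp, a cytokine that favours type 2 responses, rose by 2.90 ± 0.48 in embryonic and by 4.20 ± 0.49 in adult stroma on the log2 scale (adjusted p = 0.0108 and 0.00683, edgeR). With LPS it was lower in embryonic stroma, at -2.32 ± 0.45 (adjusted p = 0.022, edgeR). Il7, Il18 and Il33 were not called for LPS at either stage.

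As a description of likeness, the tested genes with the highest Pearson correlation of log2 CPM over the 12 libraries were taken for each of the 6. The libraries share treatment, stage and depth, so any gene raised by LPS shares part of this pattern. Il12b ran closest to Cxcl9, Cd69 and Ccl22 (r = 0.990, 0.987 and 0.986), and Il27 to Slamf7, Cxcl11 and Cd69 (0.995, 0.987 and 0.986). Il23a ran closest to Tnip1, Csf2 and Zc3h12a (0.976, 0.974 and 0.968). Ebi3 was nearest to Oas1a (0.989), Il15 to Rassf4 (0.974) and Il15ra to Casp4 (0.964). Among the 6 genes themselves, Il12b and Il27 were the most alike (0.981) and Il23a and Ebi3 the least (0.372). Il23a was more like Il15ra (0.852) than like its partner Il12b (0.738).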

How the data were processed

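Poly(A) mRNAseq libraries of embryonic (E14.5) and adult mouse intestinal stromal cells, with LPS or PBS for 6 h, were grouped by stage and treatment as labelled, with 3 libraries in each of 4 groups. The authors trimmed the reads, mapped them to GRCm38.p6 with STAR, kept unique reads with few mismatches and deposited raw counts per gene, without normalization, for either strand together and each strand apart. The strand with most counts was used here, and the other held 1.14% to 1.98% of gene counts. Unassigned reads (8.69% to 9.85%) stayed out of library sizes.

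In R 4.3.3, edgeR 4.0.16 scaled the libraries by TMM, kept genes above 0.5 CPM in all libraries of at least 1 group, and fitted all 12 libraries together with the quasi-likelihood test. P-values were adjusted by Benjamini-Hochberg over 13038 genes. Ratios were compared by exact two-sided permutation. Counting intervals are exact 95% intervals of counts, levels per kilobase use merged GENCODE exons, and figures were drawn with matplotlib 3.10.9. Start-site windows and gene coordinates came from RefSeq, which matched 118 listed genes directly and 2 by synonym, and 1 (Trac) was unmatched. No replicate pair was a duplicate deposit. The steps were tested on simulated data.

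The labels number the libraries in each group, and the sources used here do not say that equal numbers share a culture, but their files share a tag whose meaning is not given. Deviations from the group means of LPS and PBS libraries of equal number correlated at 0.759, 0.784 and 0.710 in embryonic and at 0.803, 0.850 and 0.610 in adult stroma, so equal numbers were treated as pairs within a stage. The methods describe independent cultures. Without the block the edgeR p-values measure the spread between libraries of a group, with LPS and PBS libraries taken as independent. With the block within a stage they measure the spread between cultures in the difference of LPS and PBS. Named genes are the 8 chosen by symbol, all receptor chains, the 2 largest called rises and falls of each other list in each LPS comparison, and up to 3 genes most like each tested member; every other gene named was chosen after its values were seen. The members and lists were chosen with earlier results of these data known. Alternatives were other tests, scalings, filters, thresholds, blocks, subsets and left-out libraries. The values of 1 listed gene are not reported here.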

Additional observations from a re-analysis of the deposited data

Results flagged for a closer look

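Reads on the strand opposite to the genes were not used in the comparisons, and for 6 of the 8 genes they were above the PBS level in an LPS library. In the highest LPS library, Il12b had 305 such counts (0.464% of its own-strand counts there), with 0 in all PBS libraries. Il23a had 25 (2.00%), Il27 13, Ebi3 10, Il15ra 9 and Il15 5. Opposite-strand counts made up 1.14% to 1.98% of all gene counts in each library. Counting both strands together left the number called among the tested genes of these 8 the same in each comparison. Over all genes the rises moved from 244 to 242 in embryonic and from 55 to 59 in adult stroma.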

How the results depend on the processing

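Among 719 recalculated fold changes of single genes, 626 kept their direction and side of the threshold, 65 kept the direction and lost the call, 22 gained a call and 6 changed direction, and the causes were not tested. The count in embryonic stroma, 5, became 2 at adjusted p under 0.01 and 0 with embryonic libraries alone. Of all genes, 0.782% and 0.0317% rose in these settings. The adult count, 1, became 4 with the likelihood ratio test, 4 with DESeq2 and 2 with total counts, where 1.21%, 1.29% and 0.552% of all genes rose. It became 0 at adjusted p under 0.01, 2 with adult libraries alone and 5 with the replicate block. There 0.115%, 0.989% and 1.6% of all genes rose. The count between stages with LPS, 4, became 1 at adjusted p under 0.01 and 0 with LPS libraries alone. Of all genes, 0.291% and 0.133% were called higher in embryonic stroma there. With PBS, 0 became 1 (Ebi3) with the likelihood ratio test and with DESeq2, beside 4.37% and 5.83% of all genes called higher. Leaving out 1 library at a time gave 1 to 6 in embryonic stroma and 0 to 2 in adult stroma. Between stages with LPS it gave 0 to 4. The embryonic count was 1 without embryonic PBS replicate 1 and 3 without replicate 2, where 0.596% and 1.13% of all genes rose. The adult count was 0 without any 1 adult PBS library, where 0.0306% to 0.0914% of all genes rose. Between stages it was 0 without adult LPS replicate 3, beside 0.298% of all genes. Of the removals added after the data were seen, leaving out embryonic replicate 3 entirely gave 3 in adult stroma and 2 between stages. Leaving out adult replicate 2 entirely gave 0 and 0. The shares of all genes were 0.883% and 2.48% in the former and 0.106% and 0.714% in the latter. The stage difference of Il15ra with LPS ranged from -1.04 to 0.48 on leaving out 1 library, at -0.24 without adult LPS replicate 2 and -1.04 without embryonic LPS replicate 3, and turned to -1.05 without embryonic replicate 3, -0.25 without adult replicate 2 and -0.24 with a block across stages, and that of Il23a with PBS ranged from -1.25 to 0.38, the latter without adult PBS replicate 3. Equal numbers were not correlated across stages (-0.306 to -0.00220). The block across stages called 3 of 6 genes with LPS, without Il15, beside 4.05% of all genes called higher. Beyond the calls given beside the results, the block within a stage changed none of those of the 8 genes. Over all genes the block moved the rises from 244 to 394 in embryonic and from 55 to 209 in adult stroma, and DESeq2 called 342 and 168. Genes of 3 or fewer counts, such as Il12a, are limited by depth.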
